A study of Glycine max with 12 samples.

Results

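Roots were compared with leaves of untransformed soybean (Glycine max) plants of the cultivar Jack. The genes tested were those past a filter on low counts that used the whole series. The members are the 3 root and 3 leaf RNA-seq libraries that the labels give as wild type (WT), 6 of the 12 libraries of the series. The plants grew in pots and were cut at the V1 stage, at which the first trifoliate leaf has unfolded completely. The other 6 libraries come from roots and leaves of OE-34, a single transgenic line that overexpresses the zinc finger gene GmZF351, cut at the same stage. The groups are called WT root, WT leaf, OE root and OE leaf. Replicates are biological repeats per the labels, with no word on how many plants each holds, so p-values measure only the spread between these samples.

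A leaf at this stage is the main site of photosynthesis. Its mesophyll cells carry the chloroplasts in which Rubisco fixes carbon dioxide and nitrite is reduced and assembled into glutamine, and its veins send sugar and flowering signals to the rest of the plant. A root takes up nitrate, phosphate and water, perceives rhizobia through receptor kinases at its surface, and in soybean stores and releases isoflavones, which act as signals to those bacteria. Many soybean genes exist as pairs or larger sets of duplicates from old genome doublings, so that a single enzyme is often encoded by several genes.

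Counts of read pairs per gene model were compared on the CPM scale (counts relative to the size of the library), with library sizes adjusted by TMM, a method that sets the bulk of genes to no difference. A log2 fold change (log2FC) is root over leaf, so positive values are higher in root. Its standard error (SE) was derived as the absolute log2FC divided by the square root of edgeR's quasi-likelihood F statistic. For genes with few counts in an organ this SE can be far too small. The flavonol synthase gene FLS1, with 5 root counts, had log2FC -11.76 (SE 0.206), and -13.26 without root replicate 2. A gene was called when its edgeR quasi-likelihood p, adjusted by Benjamini-Hochberg over the 35968 genes tested, was under 0.05. A second test, called the 2-fold test, asked in the same way whether the difference exceeded 2-fold. In whole organs, fewer cells of a type and less RNA per cell cannot be told apart.

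Most of the transcriptome differed between the organs. Of 35968 genes tested, 27956 were called (77.7%), 15043 higher in WT root (41.8%) and 12913 higher in WT leaf (35.9%). The 2-fold test called 16281 genes (45.3%), 8386 higher in root (23.3%) and 7895 higher in leaf (22%). The median absolute log2FC was 1.14 over all genes tested and 1.68 among the called genes. Called genes with a fitted difference of at least 16-fold numbered 3013 for root and 3207 for leaf, and at least 256-fold 1010 and 1107. For genes with 0 counts in an organ the fitted fold depends on the model's prior count and can far exceed what the counts bear out. The nodulation gene NFR5B, with 0 counts in leaf, was fitted at 363-fold, where 3 counts per leaf library would give 9.89-fold. The balance between the organs rests on the scaling. With library totals and no composition factor, log2FC moved up by a median of 0.91, and 75.4% of the called genes were higher in root, against 53.8% with TMM.

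**Figure D1:**
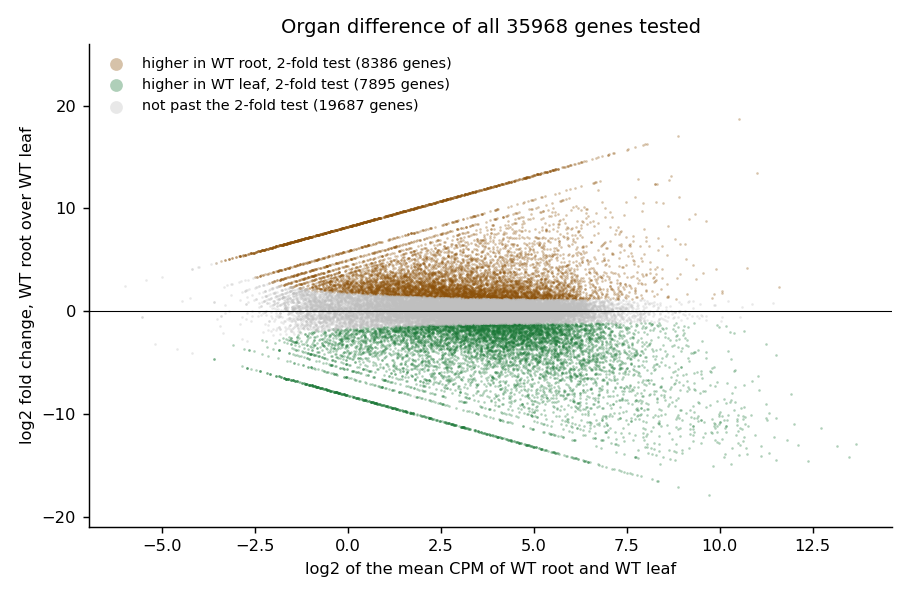
Log2 fold change of WT root over WT leaf (vertical axis) against the log2 of the mean CPM of both organs (horizontal axis), 1 point per gene. The 8386 genes past the 2-fold test in root and the 7895 in leaf fan out above and below 0, and the straight outer lines are genes with 0 or very few counts in an organ, where the fitted value depends on the model's prior count.

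The 6 libraries held 16885874 to 17330102 counts in root and 17947388 to 18326987 in leaf, and at least 1 count was seen for 37179 to 37723 gene models in root and 35947 to 36173 in leaf. No replicate pair matched within counting noise, so none was taken for 1 library deposited 2 times. The chi-square per gene was 2.97 to 9.87 between root libraries, with both pairs that hold replicate 3 at the upper end, and 3.63 to 7.37 between leaf libraries. Without root replicate 3 the number of called genes was 27683. The median SD of log2 CPM within a group was 0.154 in root and 0.175 in leaf.

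Leaf libraries were dominated by far fewer genes. The 10 most counted genes took 3.31% to 3.72% of the counts in root libraries and 8.4% to 9.04% in leaf libraries. To reach 50% of the counts took 2661 to 2747 genes in root and 661 to 707 genes in leaf, and the ranges lie far apart. The genes higher in leaf by the 2-fold test took 7.7% to 7.8% of the counts in root libraries and 68.7% to 69.6% in leaf libraries. The genes higher in root by that test took 38% to 38.4% of the counts in root libraries but only 2.8% to 2.9% in leaf libraries.

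**Figure D2:**
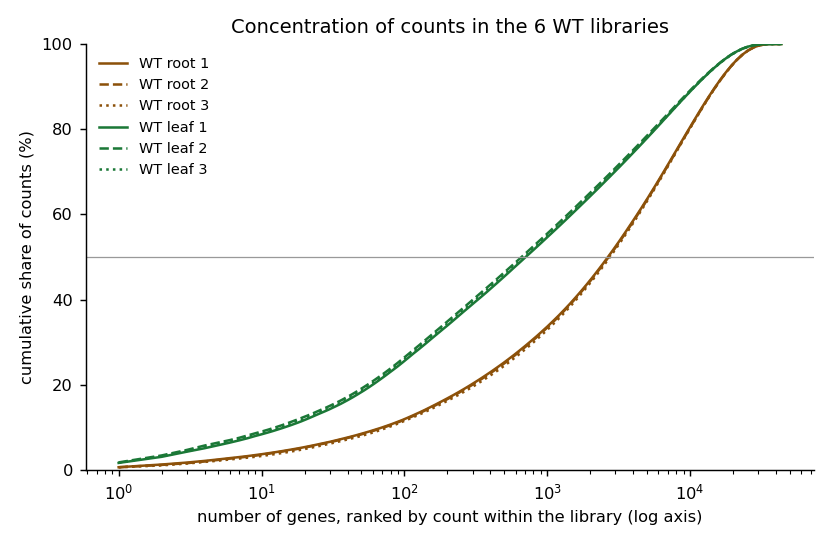
Cumulative share of counts (percent) against the number of genes ranked by count within each library (log axis), 1 line per WT library. The leaf lines reach 50% within 661 to 707 genes and the root lines within 2661 to 2747 genes, and replicates of an organ nearly coincide.

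With TMM scaling, the share of genes higher in leaf was larger at higher levels. Levels per length are CPM per kilobase of exon, and each gene was placed by its level in the organ where it was higher. Of the 3737 genes under 1 CPM per kilobase, 28.7% passed the 2-fold test toward root and 12% toward leaf. Of the 1450 genes between 100 and 1000 CPM per kilobase, 19.9% did so toward root and 62.6% toward leaf. Of the 120 genes at 1000 CPM per kilobase or more, 5.8% did so toward root and 90% toward leaf.

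With TMM scaling, gene structure went with the direction too. Among 4506 genes whose exons merge into 1, 33.9% passed the 2-fold test toward root and 22.6% toward leaf, with a median absolute log2FC of 1.83. Among 10947 genes with 8 or more merged exons, 18.3% did so toward root and 19.7% toward leaf, with a median absolute log2FC of 0.86. The median exon length was 1315 bases in the former genes and 2455 bases in the latter, and the part of length was not tested. Over the 20 chromosomes, the share past the 2-fold test ran from 21.5% to 25% toward root and from 19.9% to 24.2% toward leaf. All these splits depend on the scaling, since library totals moved log2FC up by a median of 0.91.

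Some genes were counted in a single organ. Of the 43517 gene models, 1058 had at least 10 counts in every root library and 0 in every leaf library, and in 531 genes the reverse held. Of those 1058 genes, 718 had the same pattern in OE root and OE leaf, as did 288 of the 531. A further 2743 gene models had no count in any of the 6 WT libraries. A count of 0 allows up to 3 counts in a library, which is 0.136 to 0.141 CPM in root and 0.246 to 0.248 CPM in leaf. At the same CPM a gene thus reaches 0 more readily in leaf and 10 counts more readily in root. The numbers 1058 and 531 are therefore not on equal terms. These floors, and the intervals of ratios given further on, cover counting error only.

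The deposited table does not pair identifiers with names, so the following genes are given by position in the annotation Wm82.a2.v1. A gene on chromosome 8 (18862871-18864462, minus strand) had 2851, 2937 and 2945 CPM in WT root and 0 counts in all WT leaf libraries, at least 11800-fold higher in root against the floor of 3 counts per library. A gene on chromosome 11 (32185432-32189350, plus strand) had 0 counts in all WT root libraries and 1642, 1726 and 1625 CPM in WT leaf, at least 11900-fold higher in leaf. Next by level per length came a gene on chromosome 6 (49188759-49191731, minus strand), with 900, 916 and 996 CPM in WT root and 0 in WT leaf. Toward leaf the other was on chromosome 1 (4345723-4347332, plus strand), with 0 in WT root and 892, 994 and 947 CPM in WT leaf.

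Among genes with at least 10 counts in each of the 6 libraries, Glyma.10G006700 (chromosome 10, 662561-665361, minus strand) had 1329, 1345 and 1193 CPM in WT root and 1.9, 1.4 and 2.39 CPM in WT leaf, with the highest root over leaf value of log2FC 9.41 (SE 0.138, edgeR adjusted p = 6.19e-32). Glyma.02G228100 came next (chromosome 2, 41497139-41503001, minus strand), with 1104, 1118 and 1219 CPM in WT root and 1.73, 2.79 and 2.22 CPM in WT leaf (log2FC 8.99). At the other end, Glyma.18G036400 (chromosome 18, 2855303-2859675, plus strand) had 1.22, 1.18 and 1.22 CPM in WT root and 21310, 24500 and 22690 CPM in WT leaf (log2FC -14.2). Glyma.13G046200 (chromosome 13, 14043433-14044927, minus strand) had 1.46, 1.6 and 2.94 CPM in WT root and 17680, 19380 and 18060 CPM in WT leaf (log2FC -13.15). The organs stand orders of magnitude apart in every library of these genes. The names written for Glyma.18G036400 and Glyma.13G046200, RCABETA and RBCS1, did not pass the name check.

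Some genes called in the same direction lay side by side. A run was taken as consecutive tested genes along a chromosome that all passed the 2-fold test in 1 direction. There were 62 runs of 5 or more genes higher in root and 43 higher in leaf. The longest held 15 genes higher in leaf on chromosome 9 (44200791-44316423), with a median log2FC of -7.17 and a median exon length of 573 bases. The longest toward root held 10 genes each, on chromosome 12 (5081048-5131534, median log2FC 3.35) and on chromosome 18 (7931881-8243946, median log2FC 7.51). Neighbouring duplicates can share reads, so the genes of a run are not independent of each other.

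Known genes were followed in lists by pathway. Lists and members were chosen with earlier results of these data known, so their counts beside the shares of all genes describe the lists and test nothing. Of 126 names matched to the table, 101 passed the filter on low counts, 41 were called higher in root, 54 higher in leaf and 6 in neither direction, beside 41.8% and 35.9% of all genes tested. By the 2-fold test these were 28 in root and 43 in leaf, beside 23.3% and 22% of all genes. Their median log2FC was -0.41, also with the 10 genes at 0 in an organ set to their bounds (0 for CHS11, at or under the floor in both organs), beside 0.13 over all genes tested.

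**Figure D3:**
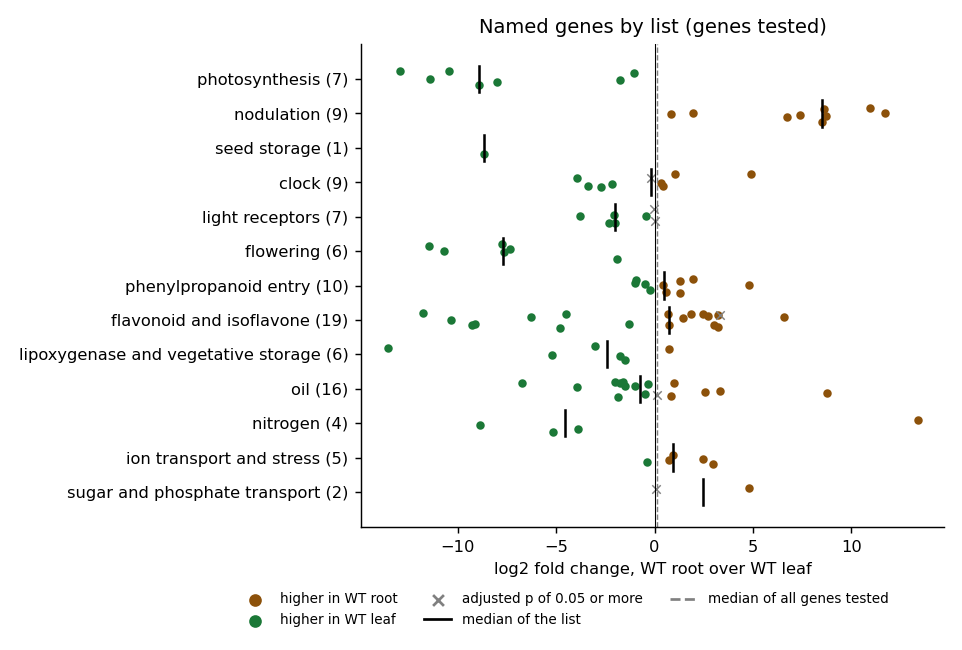
Log2 fold change of WT root over WT leaf for the 101 named genes tested, 1 row per list with the number of genes in brackets. Photosynthesis and flowering genes lie left of 0 (higher in leaf) and nodulation genes right of it (higher in root), whereas the flavonoid list spreads from -11.76 to 6.57 and the phenylpropanoid list straddles 0, with 2 of its leaf-side genes passing to the root side under library totals.

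Photosynthesis genes, the markers of leaf tissue, were far higher in the leaf libraries. All 7 members were called higher in leaf, where 35.9% of all genes were, and 6 passed the 2-fold test, beside 22% of all genes. Their median log2FC was -8.92, beside 0.13 over all genes. All members were chosen with earlier results of these data known, and CAB3, CHLH, SGR1 and SGR2 were added to this list later than the others. RBCS2, a small subunit of Rubisco, had 5.5, 4.66 and 5.02 CPM in WT root and 12220, 15630 and 13080 CPM in WT leaf (log2FC -11.39, SE 0.17, edgeR adjusted p = 1.21e-31). RCA11, a Rubisco activase, which frees the enzyme of bound inhibitors, had 3.39, 3.34 and 3.08 CPM in WT root and 24950, 27240 and 25730 CPM in WT leaf (log2FC -12.95, SE 0.168). Both genes were under 6 CPM in every root library and at 12220 CPM or more in every leaf library.

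RCA14, another activase, averaged 2.86 ± 0.68 CPM in WT root and 1394 ± 59 CPM in WT leaf (SD, n = 3 each). RCAALPHA and RCABETA, names of further activases, did not pass the name check and are left out of the list. Per kilobase of exon, RCA11 and RCA14 stood at 1.78 and 1.33 CPM in root and at 14100 and 648 CPM in leaf, so their levels were alike in root and unlike in leaf. CAB3, a chlorophyll a/b-binding protein of the light-harvesting antenna, averaged 4.19 ± 1.76 CPM in root and 5860 ± 358 CPM in leaf. CHLH, a magnesium chelatase subunit of chlorophyll synthesis, averaged 9.89 ± 1.12 CPM in root and 2570 ± 90.6 CPM in leaf. The organs did not overlap in any of these genes.

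SGR1 and SGR2, which act in chlorophyll breakdown, differed far less. SGR1 averaged 38.4 ± 3.58 CPM in WT root and 130 ± 5.97 CPM in WT leaf (log2FC -1.75, SE 0.0882). SGR2 had 15.8, 14.3 and 14.8 CPM in WT root and 31, 30.3 and 30.5 CPM in WT leaf, with log2FC -1.03, and it did not pass the 2-fold test (edgeR adjusted p = 0.346). Under library totals the SGR2 difference was -0.12 and no longer called.

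Genes of organs not sampled were close to absent. The nodule oxygen carriers LBC1, LBC2 and LBC3, which are leghemoglobins, had 0 counts in all 6 libraries. Of the 8 seed storage names, 6 had 0 counts in all 6 libraries and the conglycinin gene CG-1 had 3 counts in root alone. P34, a seed vacuole protein of the papain family, had 0 counts in WT root and 3.22, 2.79 and 2.22 CPM in WT leaf, at least 19.7-fold higher in leaf. The floral identity gene AP1 had 0 counts in all 6 libraries.

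Nodulation genes were higher in root. All 9 tested members of 11 were called higher in root, where 41.8% of all genes were, and 8 passed the 2-fold test, beside 23.3% of all genes. Their median log2FC was 8.5, and 6.54 with the 3 genes at 0 in leaf set to their bounds. Summed over the list, root libraries held 355 to 371 CPM and leaf libraries 11.2 to 13.5 CPM. All members were chosen with earlier results of these data known, and SYMRK-ALPHA, SYMRK-BETA, NSP1 and CLV1A were added to this list later than the others.

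The Nod factor receptors come first in the pathway. NFR5A (Glyma.11G063100, chromosome 11, 4779592-4781813, plus strand) had 22.5, 24.8 and 21.5 CPM in WT root and 0 counts in every WT leaf library, at least 92.8-fold higher in root. Its duplicate NFR5B had 2.49, 3.25 and 1.58 CPM in root and 0 in leaf, at least 9.89-fold higher. Per kilobase, NFR5A stood at 10.3 CPM and NFR5B at 0.676 CPM in root. RJ1, the partner receptor NFR1, had 15.1, 14 and 16.3 CPM in WT root and 0, 0 and 0.247 CPM in WT leaf. Its 981 root counts against 3 leaf counts gave a ratio of 185 (95% exact interval 62.9 to 896), and without leaf replicate 3, which holds those counts, the fitted log2FC was 11.18 and not 7.41. The duplicate NFR1B had 3 counts in root and 5 in leaf and was not tested.

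Receptor kinases acting next to or after the Nod factor receptors followed. SYMRK-ALPHA and SYMRK-BETA are copies of the kinase that symbiosis with rhizobia and with mycorrhizal fungi share. SYMRK-ALPHA had 138, 141 and 149 CPM in WT root and 0, 0.492 and 0.494 CPM in WT leaf (log2FC 8.73, SE 0.201, edgeR adjusted p = 5.68e-28). SYMRK-BETA had 127, 116 and 128 CPM in WT root and 0.165, 0 and 0 CPM in WT leaf, and its 7992 root counts against 2 leaf counts gave a ratio of 2250 (95% exact interval 624 to 18600). Without leaf replicate 1 its fitted log2FC was 14.21 and not 10.97. Both copies were over 100 CPM in every root library and under 0.5 CPM in every leaf library, and per kilobase they stood at 38.2 and 29.6 CPM in root.

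Of the transcription factors of the pathway, NSP1 had 20.4, 20 and 14.8 CPM in WT root and 0.33, 0.0821 and 0.0824 CPM in WT leaf, a ratio of 111 (95% exact interval 51 to 304). Its fitted log2FC was 6.74, and 7.69 without leaf replicate 1. NINA, a copy of the nodule inception factor, had 2.02, 2.54 and 3.21 CPM in WT root and 0 in WT leaf, at least 10.5-fold higher. NARK, the shoot-acting receptor kinase that limits nodule number, was called in the same direction but present in both organs, with 30.9, 26.7 and 27.7 CPM in WT root and 8.99, 5.42 and 7.25 CPM in WT leaf (log2FC 1.98, SE 0.139). Its homolog CLV1A had 8.04, 7.07 and 7.83 CPM in root and 4.04, 5 and 3.71 CPM in leaf (log2FC 0.85), short of the 2-fold test. RIC2, which encodes a peptide that rhizobia induce in roots, had 0 counts in all 6 libraries.

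Nitrogen genes gave calls in both directions. Of 4 tested members of 6, 1 was called higher in root and 3 higher in leaf, beside 41.8% and 35.9% of all genes tested. Each passed the 2-fold test, beside 23.3% and 22% of all genes. NIR, GS1GAMMA2 and GS1-GAMMA were added to this list later than the other members. NRT2 (Glyma.13G323800, chromosome 13, 41826206-41828824, minus strand), a high-affinity nitrate transporter, had 78.2, 75 and 62.9 CPM in WT root and 0 counts in WT leaf, at least 292-fold higher in root. INR2, an inducible nitrate reductase, had 14.9, 9.84 and 10 CPM in WT root and 188, 149 and 178 CPM in WT leaf (log2FC -3.89, SE 0.125, edgeR adjusted p = 6.9e-22). NIR, a nitrite reductase, averaged 1.58 ± 0.76 CPM in root and 57.3 ± 0.763 CPM in leaf (log2FC -5.16). GS-2, the plastid glutamine synthetase, averaged 5.29 ± 0.757 CPM in root and 2461 ± 135 CPM in leaf (log2FC -8.86). INR2, NIR and GS-2 were higher in every leaf library than in any root library, and NRT2 was counted in root alone. The nodule-type cytosolic synthetases GS1GAMMA2 and GS1-GAMMA had 20 and 1 counts in root and 10 and 25 counts in leaf and were not tested.

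Phenylpropanoid entry genes were called in both directions. PAL removes ammonia from phenylalanine and C4H hydroxylates the product, which feeds lignin and flavonoid synthesis. Of 10 members, 6 were called higher in root and 4 higher in leaf, beside 41.8% and 35.9% of all genes tested, but under library totals none was called higher in leaf. The 2-fold test called 4 higher in root and 0 higher in leaf, beside 23.3% and 22% of all genes. The median log2FC was 0.48. C4H and C4H1 were added to this list later than the PAL genes. C4H had 1274, 1251 and 1286 CPM in WT root and 560, 457 and 521 CPM in WT leaf (log2FC 1.31, SE 0.0811, edgeR adjusted p = 4.3e-16). C4H1, its lowly counted relative, averaged 3.69 ± 1.01 CPM in root and 2.5 ± 0.166 CPM in leaf (log2FC 0.56, edgeR adjusted p = 0.0429), and this call was lost without root replicate 1 (adjusted p = 0.059) or 3 (adjusted p = 0.255) and without any 1 of the leaf replicates (adjusted p = 0.0595 to 0.106).

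The 8 PAL genes ranged widely. Their sum averaged 1240 ± 21.2 CPM in WT root and 1420 ± 50.2 CPM in WT leaf (SD, n = 3 each), a ratio of 0.875, which library totals turned to 1.64. PAL3.1 had 9.17, 10.8 and 13.1 CPM in WT root and 0.165, 0.656 and 0.33 CPM in WT leaf (log2FC 4.82, SE 0.293), and 5.44 without leaf replicate 2. PAL1.1 averaged 152 ± 3.28 CPM in root and 62.7 ± 7.95 CPM in leaf (log2FC 1.27), and PAL1.2 had log2FC 1.93. PAL2.1, the most counted copy, averaged 552 ± 24 CPM in root and 784 ± 43.7 CPM in leaf (log2FC -0.50), a direction that reversed to 0.4 under library totals, as did that of PAL2.3 (-0.25, against 0.66). PAL1.3 and PAL2.4 were called higher in leaf at log2FC -1.01 and -0.92 and were not called under library totals. PAL1.2 and PAL1.3 lie next to each other on chromosome 3 (39362677-39366612 and 39351927-39355288) and were called in opposite directions.

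The flavonoid list held large differences in both directions. Of 19 tested members of 21, 10 were called higher in root, 8 higher in leaf and 1 in neither direction, close to the 41.8% and 35.9% of all genes tested. By the 2-fold test these were 8 in root and 7 in leaf, beside 23.3% and 22% of all genes. The median log2FC was 0.72, and 0.66 with bounds. Genes of isoflavone synthesis stood on the root side, and genes of flavone, flavonol and anthocyanin synthesis mostly on the leaf side. CHS10, CHS11, FNSII-1, FNSII-2 and UGT78K1 were added to this list later than the other members.

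Chalcone synthase (CHS) is the first enzyme of flavonoid synthesis. The sum given here leaves out CHS1, CHS2, CHS3, CHS5 and CHS9, which did not pass the name check. Summed over the 5 tested CHS genes with a kept name, WT root libraries held 1598, 1635 and 1599 CPM and WT leaf libraries 87.1, 93.9 and 81.8 CPM, an 18.4-fold ratio of the means. CHS7 (Glyma.01G228700, chromosome 1, 55659010-55660950, plus strand) had 963, 990 and 932 CPM in WT root and 9.65, 11.1 and 9.56 CPM in WT leaf (log2FC 6.57, SE 0.116, edgeR adjusted p = 2.38e-31). CHS8 had 615, 624 and 649 CPM in WT root and 68.7, 72.4 and 63.1 CPM in WT leaf (log2FC 3.21, SE 0.0927). Per kilobase, CHS7 and CHS8 stood at 643 and 361 CPM in root and at 6.75 and 39 CPM in leaf, so the order of the pair was opposite in the organs. The pair is near-identical and its counts are uncertain, since the recorded counting command asks for no reads that map to several places.

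CHS6 had 7.29, 6.12 and 5.34 CPM in WT root and 0.33, 1.97 and 1.07 CPM in WT leaf (log2FC 2.47, and 3.14 without leaf replicate 2). CHS10 averaged 13.7 ± 0.818 CPM in root and 8.31 ± 0.208 CPM in leaf (log2FC 0.72). CHS11 had 4 counts in root and 0 in leaf, and was not called (edgeR adjusted p = 0.119), though under library totals it was (adjusted p = 0.0439). It passed the filter on low counts through OE root, with 1.46, 2.4 and 1.87 CPM.

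Downstream of CHS, the isoflavone genes followed. CHI1A, a chalcone isomerase, had 228, 212 and 207 CPM in WT root and 23.3, 31.5 and 25.2 CPM in WT leaf (log2FC 3.01, SE 0.0987). IFS1, an isoflavone synthase, had 859, 861 and 765 CPM in WT root and 98.2, 82.6 and 81.2 CPM in WT leaf (log2FC 3.25, SE 0.0925). IFS2 had 265, 267 and 232 CPM in WT root and 71.7, 62.7 and 74.5 CPM in WT leaf (log2FC 1.87, SE 0.0861). Every root library stood above every leaf library in all 3 genes, and the 2 IFS copies are close enough in sequence for their counts to be uncertain.

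IF7GT, a glucosyltransferase that stores isoflavones as glucosides, differed less, with 213 ± 29.3 CPM in WT root and 135 ± 15.7 CPM in WT leaf (log2FC 0.66), short of the 2-fold test. MYB176, a transcription factor that activates CHS8, averaged 99 ± 4.47 CPM in root and 36.7 ± 1.98 CPM in leaf (log2FC 1.43, SE 0.0837).

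**Figure D4:**
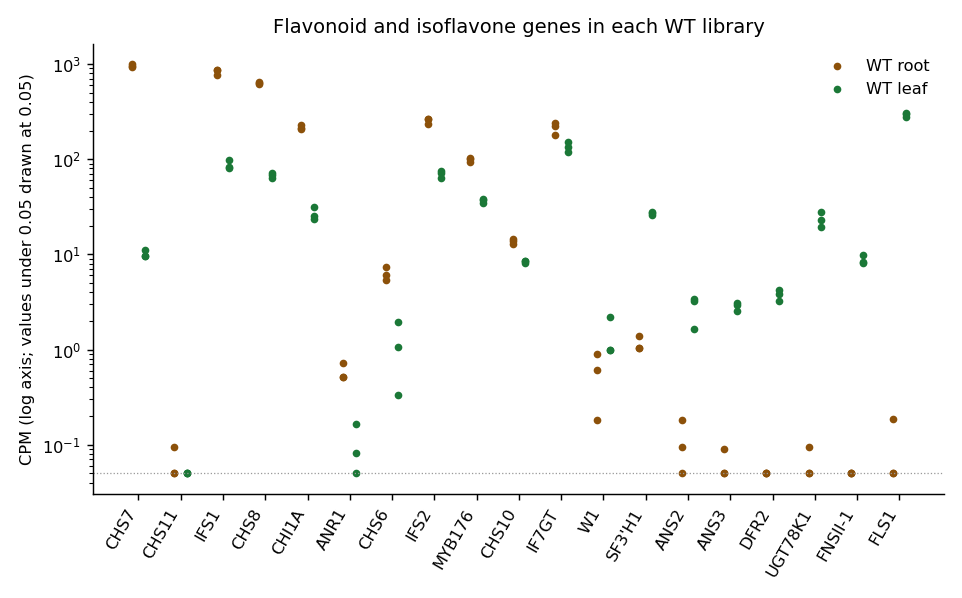
CPM (log axis) of the 19 tested flavonoid and isoflavone genes in each WT root (brown) and WT leaf (green) library, ordered by log2FC. CHS7, CHS8, CHI1A and IFS1 are at 207 CPM or more in every root library, and FLS1 is at 0.188 CPM or less in every root library and at 275 to 307 CPM in leaf.

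Genes of the other branches were low or at 0 in root. FLS1 (Glyma.13G082300, chromosome 13, 19154278-19159357, plus strand), a flavonol synthase, had 0, 0.188 and 0.0453 CPM in WT root and 307, 275 and 296 CPM in WT leaf. Its fitted log2FC was -11.76 (SE 0.206, edgeR adjusted p = 1.99e-31), and -13.26 without root replicate 2. FNSII-1, a flavone synthase, had 0 counts in WT root and 9.9, 8.37 and 8.16 CPM in WT leaf, at least 63.2-fold higher in leaf. Its neighbour FNSII-2 had 0 counts in root and 2 in leaf. SF3'H1, a flavonoid 3'-hydroxylase, averaged 1.16 ± 0.212 CPM in root and 26.9 ± 0.835 CPM in leaf (log2FC -4.52, SE 0.19).

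Anthocyanin enzymes were lowly counted but lay on the same side. DFR2, a dihydroflavonol reductase, had 0 counts in WT root and 3.8, 3.2 and 4.2 CPM in WT leaf, at least 26.8-fold higher in leaf. DFR1, another such name, had 3 counts in root and 1 in leaf and was not tested. UGT78K1, which adds glucose to anthocyanidins, had 0, 0.0942 and 0 CPM in WT root and 19.5, 27.7 and 22.8 CPM in WT leaf, a ratio of 754 (95% exact interval 208 to 6240), with fitted log2FC -9.27 and -11.74 without root replicate 2. The anthocyanidin synthases ANS2 and ANS3 averaged 0.0917 ± 0.0905 and 0.0302 ± 0.0522 CPM in root and 2.75 ± 0.96 and 2.85 ± 0.272 CPM in leaf. Their fitted log2FC was -4.79 and -6.25, and -5.67 and -8.70 without root replicate 3. The ratio of leaf to root counts was 29.5 for ANS2 (95% exact interval 13.1 to 82.4) and 92.2 for ANS3 (24.9 to 771).

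W1, a flavonoid 3',5'-hydroxylase, averaged 0.562 ± 0.359 CPM in WT root and 1.4 ± 0.708 CPM in WT leaf (log2FC -1.31, edgeR adjusted p = 0.0119). That call was lost without root replicate 3 (adjusted p = 0.0748) and without leaf replicate 2 (adjusted p = 0.164), and under library totals. ANR1, an anthocyanidin reductase of tannin synthesis, was the exception, with 0.517, 0.518 and 0.724 CPM in WT root and 0.0825, 0.164 and 0 CPM in WT leaf, a ratio of 7.15 (95% exact interval 2.27 to 36.2). Its fitted log2FC was 2.74, and 3.64 without leaf replicate 2. All these levels are low, with 38 counts of ANR1 over the root libraries.

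Clock genes were called in both directions. The circadian clock of plants couples morning genes such as LHY to evening genes such as GI, ELF3 and LUX, and the labels give no hour of cutting. Of 9 members, 4 were called higher in root, 4 higher in leaf and 1 in neither direction, near the 41.8% and 35.9% of all genes tested. The 2-fold test called 1 higher in root and 4 higher in leaf, beside 23.3% and 22% of all genes. The median log2FC was -0.20. All 4 LHY genes were on the leaf side, with log2FC -2.16 for LHY1a, -2.74 for LHY1b, -3.38 for LHY2a and -3.93 for LHY2b.

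LHY2b had 154, 148 and 143 CPM in WT root and 2387, 2115 and 2282 CPM in WT leaf, and LHY1a had 476, 478 and 513 CPM in WT root and 2325, 2108 and 2128 CPM in WT leaf. Per kilobase, LHY1a and LHY2b stood at 140 and 44 CPM in root and at 628 and 671 CPM in leaf, so that LHY1a stood above LHY2b in root and not in leaf. Summed over the 4 copies, the mean was 835 ± 25.6 CPM in root and 6040 ± 358 CPM in leaf. The copies are similar in sequence and their counts are uncertain.

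Evening genes differed less or the other way. LUXB had 3.2, 2.4 and 2.26 CPM in WT root and 0.248, 0 and 0 CPM in WT leaf, a ratio of 31.8 (95% exact interval 10.7 to 156), with fitted log2FC 4.88, and 8.65 without leaf replicate 1. LUXC averaged 6.75 ± 1.51 CPM in root and 3.27 ± 0.853 CPM in leaf (log2FC 1.05). ELF3A was called at log2FC 0.32 (edgeR adjusted p = 0.0325), a call lost without root replicate 2 (adjusted p = 0.117) or leaf replicate 1 (adjusted p = 0.143). PRR3B was called at log2FC 0.44 (adjusted p = 0.0281), a call lost without root replicate 3 (adjusted p = 0.0718) or leaf replicate 2 (adjusted p = 0.304). GIa averaged 20.8 ± 3.43 CPM in root and 23.9 ± 0.824 CPM in leaf and was not called (log2FC -0.20, adjusted p = 0.09), but it was called without root replicate 2 (-0.34, adjusted p = 0.00663) and was called higher in root under library totals (0.71).

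Light receptors were counted in both organs. Phytochromes sense red and far-red light and cryptochromes blue light. Of the 7 members, which are 5 receptors and the transcription factors STF2 and BZIP36, 0 were called higher in root, 5 higher in leaf and 2 in neither direction, beside 41.8% and 35.9% of all genes tested, but under library totals 3 were called higher in root. The 5 called genes are PHYA1, PHYA3, CRY1a, STF2 and BZIP36, so that 3 of the 5 receptors were called. PHYA2 had 54, 53.3 and 57.8 CPM in WT root and 61.2, 48.3 and 53.6 CPM in WT leaf (log2FC 0.02, SE 0.09, edgeR adjusted p = 0.858), and the organs overlapped. PHYB averaged 22.7 ± 1.47 CPM in root and 23 ± 1.16 CPM in leaf (log2FC -0.01, adjusted p = 0.906), and 0.89 under library totals.

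The phytochrome A copies differed from each other. PHYA1 averaged 19.7 ± 1.76 CPM in WT root and 26.2 ± 0.749 CPM in WT leaf (log2FC -0.41, and 0.5 under library totals). PHYA3, a maturity gene, had 6.72, 6.55 and 5.7 CPM in WT root and 28.1, 21.8 and 27.2 CPM in WT leaf (log2FC -2.02, SE 0.133). CRY1a, a cryptochrome, had 1.6, 2.12 and 0.996 CPM in WT root and 22.2, 19.7 and 22.7 CPM in WT leaf (log2FC -3.77, SE 0.187). STF2, a bZIP factor of light responses, averaged 8.9 ± 1.4 CPM in root and 44.2 ± 4.44 CPM in leaf, and BZIP36 averaged 11.5 ± 1.12 CPM in root and 48.5 ± 4.45 CPM in leaf.

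The tested flowering genes were higher in leaf. All 6 tested members of 8 were called higher in leaf, where 35.9% of all genes were, and all 6 passed the 2-fold test, beside 22% of all genes, with a median log2FC of -7.69, and -7.19 with bounds. FT2A (Glyma.16G150700, chromosome 16, 31109999-31114963, plus strand), a florigen made in leaves and carried to the shoot tip, had 0 counts in WT root and 19.4, 18.1 and 18.2 CPM in WT leaf, at least 133-fold higher in leaf. FT5A, a second florigen, had 0.094, 0.377 and 0.498 CPM in WT root and 51, 60.5 and 47.6 CPM in WT leaf (log2FC -7.32, SE 0.242). The flowering repressor E1 had 0 counts in root and 1.65, 0.903 and 1.73 CPM in leaf, at least 10.2-fold higher in leaf. FT1A, which delays flowering in soybean, had 0 counts in all 6 libraries.

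COL2A and COL2B, relatives of CONSTANS, the day-length factor of Arabidopsis, were on the leaf side too. COL2A had 0.47, 0.236 and 0 CPM in WT root and 387, 406 and 378 CPM in WT leaf, with fitted log2FC -10.67, and -11.64 without root replicate 1 and -10.08 without root replicate 3. COL2B had 1.79, 2.78 and 1.54 CPM in WT root and 413, 411 and 400 CPM in WT leaf (log2FC -7.65, SE 0.137). DT2, a MADS-box gene of stem growth habit, differed less, with 2.29 ± 0.559 CPM in root and 8.5 ± 1.03 CPM in leaf (log2FC -1.89).

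Lipoxygenases, which oxidise polyunsaturated fatty acids, and vegetative storage proteins, which hold nitrogen in shoots, were followed together. Of 6 tested members of 9, 1 was called higher in root and 5 higher in leaf, beside 41.8% and 35.9% of all genes tested. By the 2-fold test these were 0 in root and 5 in leaf, beside 23.3% and 22% of all genes, with a median log2FC of -2.40. VSPA (Glyma.07G014500, chromosome 7, 1145046-1146554, plus strand) had 0, 0.236 and 0 CPM in WT root and 940, 1079 and 1023 CPM in WT leaf, with fitted log2FC -13.56 (SE 0.218), and -17.18 without root replicate 2, the only root library with counts. VSPB averaged 17.6 ± 0.601 CPM in root and 60 ± 11.7 CPM in leaf (log2FC -1.77). Per kilobase, VSPA and VSPB stood at 0.078 and 13.7 CPM in root and at 1010 and 46.7 CPM in leaf, so the order of the pair was opposite in the organs.

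LOX4 was the most counted of the 7 lipoxygenases on the list in both organs, with 3636, 3312 and 3510 CPM in WT root and 2187, 1958 and 2093 CPM in WT leaf (log2FC 0.75, SE 0.0797, edgeR adjusted p = 3.9e-10), short of the 2-fold test. LOX9 had 10.2, 9.66 and 11.5 CPM in WT root and 377, 395 and 380 CPM in WT leaf (log2FC -5.20, SE 0.106). LOX7 averaged 8.95 ± 1.54 CPM in root and 73 ± 2.8 CPM in leaf, and LOX10 averaged 11.2 ± 0.492 CPM in root and 31.7 ± 1.97 CPM in leaf. The seed lipoxygenases LOX1.1, LOX2 and LOX3 had 5, 5 and 1 counts in root and 0 in leaf. LOX4 and LOX7 are neighbours on chromosome 13 (43773475-43780320 and 43797692-43803266) with opposite directions.

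Fatty acid and oil genes were higher in leaf for most desaturases and higher in root for a few copies. Of 16 tested members of 18, 5 were called higher in root, 10 higher in leaf and 1 in neither direction, beside 41.8% and 35.9% of all genes tested, while library totals put 8 on the root side. The 2-fold test called 3 higher in root and 7 higher in leaf, beside 23.3% and 22% of all genes. The median log2FC was -0.72. SACPD-C, a stearoyl-ACP desaturase, had 12.5, 16.5 and 15.2 CPM in WT root and 0.0825, 0 and 0 CPM in WT leaf, a ratio of 537 (95% exact interval 96.2 to 21200). Its fitted log2FC was 8.75, and 11.14 without leaf replicate 1, which holds the single leaf count. Its relative SACPD-B averaged 47.7 ± 3.82 CPM in root and 134 ± 6.48 CPM in leaf (log2FC -1.49).

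The FAD3 genes encode the desaturase that makes linolenic acid. FAD3C had 2.26, 2.12 and 2.08 CPM in WT root and 219, 241 and 218 CPM in WT leaf (log2FC -6.71, SE 0.127, edgeR adjusted p = 1.5e-30). FAD3B followed at log2FC -1.60 and FAD3A at -0.98, which was not called under library totals. Per kilobase, FAD3A, FAD3B and FAD3C stood at 8.56, 12.2 and 1.15 CPM in root and at 16.8, 37.2 and 121 CPM in leaf, so the lowest copy of root was the highest of leaf.

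FAD2-2B, an oleate desaturase, averaged 45.6 ± 4.45 CPM in WT root and 696 ± 16.5 CPM in WT leaf (log2FC -3.93), and FAD2-2C averaged 77.6 ± 9.05 CPM in root and 286 ± 20.4 CPM in leaf (log2FC -1.88). The seed copies FAD2-1A and FAD2-1B had 0 counts in root and 4 and 0 in leaf. SAD2 and the elongation enzyme KASII-A had log2FC -2.03 and -1.74. The thioesterases FATB1a and FATB1B were called higher in leaf at -0.33 and -0.47, but higher in root at 0.57 and 0.44 under library totals.

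WRI1A and WRI1B, copies of a transcription factor of fatty acid synthesis, were lowly counted and higher in root. WRI1A had 5.55, 7.91 and 7.6 CPM in WT root and 0.908, 1.72 and 0.906 CPM in WT leaf (log2FC 2.57, SE 0.259). WRI1B averaged 3.65 ± 0.112 CPM in root and 0.357 ± 0.333 CPM in leaf (log2FC 3.33, and 4.11 without leaf replicate 3). Among the DGAT1 acyltransferases, which make triacylglycerol, DGAT1A and DGAT1b were called at 0.83 and 0.97, and DGAT1C was not called (log2FC 0.14, SE 0.248, edgeR adjusted p = 0.623), with the organs overlapping. Under library totals DGAT1C was called at 1.04.

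Of 5 ion transport and stress genes, 4 were called higher in root and 1 higher in leaf, beside 41.8% and 35.9% of all genes tested. By the 2-fold test these were 2 in root and 0 in leaf, beside 23.3% and 22% of all genes, with a median log2FC of 0.92. SOS1, a sodium exporter of the plasma membrane, had 80.8, 82 and 81 CPM in WT root and 14.6, 15.2 and 14.2 CPM in WT leaf (log2FC 2.47, SE 0.106, edgeR adjusted p = 1.48e-20). NHX1, a vacuolar sodium exchanger, averaged 56.6 ± 1.79 CPM in root and 72.9 ± 4.5 CPM in leaf (log2FC -0.37), a direction that turned to 0.54 under library totals. WRKY27, a transcription factor, averaged 60 ± 2.17 CPM in root and 7.63 ± 1.86 CPM in leaf (log2FC 2.97). SNAP18, the alpha-SNAP of the cyst nematode resistance locus Rhg1, averaged 739 ± 24.7 CPM in root and 390 ± 20.5 CPM in leaf (log2FC 0.92), and SNAP11 had log2FC 0.74.

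Of 4 sugar and phosphate names, 2 were tested and 1 was called, higher in root, beside 41.8% of all genes tested. SS, a sucrose synthase, which splits imported sucrose, had 579, 508 and 519 CPM in WT root and 17.7, 17.2 and 22.5 CPM in WT leaf (log2FC 4.80, SE 0.132, edgeR adjusted p = 7.32e-23). PHT1-4, a phosphate transporter, had 5.6, 4.76 and 4.39 CPM in WT root and 4.87, 4.6 and 4.37 CPM in WT leaf (log2FC 0.09, SE 0.228, adjusted p = 0.721), and the organs overlapped, although it was called at 1.0 under library totals. SWEET39 and SWEET24, sugar exporters, had 3 and 0 counts in root and 0 in leaf.

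The organ difference was measured a second time in the other genotype, where none of the libraries compared are those of WT. Both comparisons came from the same fit to all 12 libraries, so they shared the filter, the scaling and the estimates of spread. The calls of the genotypes are therefore not independent of each other. With only the 6 WT libraries, 26254 genes were called in WT, against 27956 in the shared fit. In OE root against OE leaf, 27819 genes were called (77.3%), 14375 higher in root (40%) and 13444 higher in leaf (37.4%), and 15868 by the 2-fold test (44.1%), 7944 for root (22.1%) and 7924 for leaf (22%). By the 2-fold test 6767 genes were higher in root in both genotypes, 85.2% of the 7944 in OE and 80.7% of the 8386 in WT. For leaf these were 6983 genes, 88.1% of the 7924 in OE and 88.4% of the 7895 in WT. In the opposite direction in OE were 5 of the WT root genes and 13 of the WT leaf genes. The difference of the organ contrasts, OE minus WT, was called for 8198 genes (22.8%).

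Of the 95 named genes called in WT, 89 had the same call in OE. Over all genes this was counted only for those past the 2-fold test in WT. Of these, 8012 of 8386 toward root and 7683 of 7895 toward leaf had the same call in OE. With TMM scaling, 43 of the 101 named genes tested had a called difference between the contrasts, beside 22.8% of all genes tested. PHT1-4 had the largest of these, with 2.34, 1.83 and 2.39 CPM in OE root and 0, 0.0609 and 0 CPM in OE leaf, against the near equal levels of WT. LOX10 had 12.1, 9.54 and 9.99 CPM in OE root and 1.02, 1.46 and 1.73 CPM in OE leaf, so that it was higher in root in OE (log2FC 2.91) and higher in leaf in WT (log2FC -1.50). The root ranges of LOX10 overlapped between the genotypes and the leaf ranges did not.

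**Figure D5:**
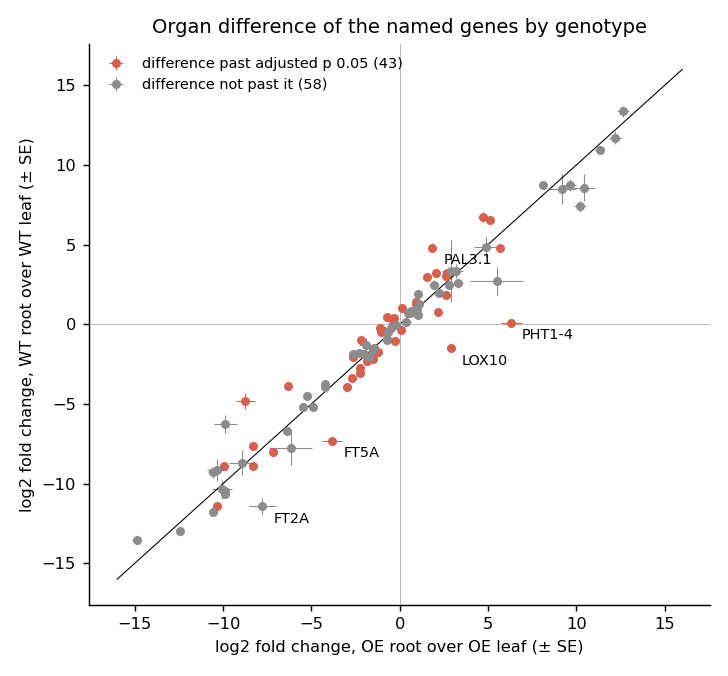
Log2 fold change of root over leaf in OE (horizontal axis) and WT (vertical axis) for the 101 named genes tested, with SE bars and the line of equality. The bars can be far too short for genes with few counts in an organ. The 43 genes in red have a called difference between the genotypes with TMM scaling. PHT1-4 (6.32 in OE, 0.09 in WT) and LOX10 (2.91 in OE, -1.50 in WT) lie farthest to the right of the line.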

How the data were processed

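RNA-seq of 6 WT and 6 OE libraries was used. The authors deposited raw read counts per gene model, made with featureCounts v2.0.1 over exons in paired-end mode with annotation Wm82.a2.v1, per the file headers. No aligner is named in the sources used here. Strand and multi-mapping options are absent from the command in that header, so antisense partners cannot be told apart and near-identical duplicates are uncertain. Gene lengths, used for levels per kilobase, are the exon lengths in the deposited table.

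Counts were fitted with edgeR 4.0.16 in R 4.3.3, with TMM factors (1.249 to 1.276 in WT root, 0.665 to 0.676 in WT leaf), filterByExpr and 1 robust quasi-likelihood model with a coefficient for each of the 4 groups in all 12 libraries. It left 8 residual degrees of freedom, had a common biological coefficient of variation of 0.0938, and covered 99.94% of the counts. The filter kept 35968 genes, against 34521 with only the 6 WT libraries. The 2-fold test is edgeR's glmTreat at log2 1. The fit was also run on simulated data in which few genes differed between WT root and WT leaf. In the real data most genes differed, so that run cannot check the scaling, and no conclusion is drawn from it. DESeq2 1.42.0 was an alternative, beside other scalings, no filter, only the WT libraries, a replicate block and each WT library left out.

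The symbol table used, RefSeq's for Glycine_max_v4.0, shares 0 of the 43517 identifiers. Of 182 identifiers written from general knowledge, 5 were set aside before matching and 177 were checked. Those kept were the 126 for which exactly 1 RefSeq gene on the same chromosome carried the name as its symbol or a listed synonym and had a genomic span within 10%. A name rests on that match, and the main symbol can differ (MYB114 for LHY2b, LOXB1 for LOX4). Named are the members of the lists, unnamed genes with the highest differences, and genes counted in 1 organ with the highest levels per length. Members and lists were chosen with earlier results of these data known. The counts of some genes had been seen before their names were written, and 19 of the 126 names kept were written later than the rest. Where a gene had 0 counts in an organ, folds are lower bounds against 3 counts per library. Ratios resting on 1 to 6 counts carry 95% exact (Clopper-Pearson) intervals.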

Additional observations from a re-analysis of the deposited data

Results flagged for a closer look

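For the following genes the organ difference in OE differed from that in WT by the interaction term of the edgeR model, which flagged them. Values are the log2FC of root over leaf in OE minus that in WT, all with adjusted p under 0.05, 19 positive and 24 negative among 101 named genes tested, where 22.8% of all genes tested were called. OE is 1 transgenic line. The values and their split by sign are those of TMM scaling. No leaf library of WT had a factor above 0.676, and none of OE had a factor below 0.862. The ratio of root to leaf factors was thus larger in WT, so library totals would lower every value listed here. Small positive values would lose the most in proportion. Over all genes, 11887 differences were called with library totals and 8198 with TMM. The named genes were not followed under library totals in this comparison.

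Photosynthesis genes had 1.05 (RBCS2), -1.02 (RCA14), 0.85 (CHLH), 0.44 (SGR1) and 0.76 (SGR2). Clock genes had 0.67 (LHY1a), 0.5 (LHY1b), 0.66 (LHY2a), 0.97 (LHY2b), -1.13 (PRR3B), -0.69 (ELF3A) and -0.93 (LUXC). Light receptor and response genes had -0.55 (PHYA1), -0.42 (PHYA2), -0.61 (PHYA3) and 0.49 (STF2). Flowering genes had 3.51 (FT5A) and -0.65 (COL2B), and the nodulation gene NSP1 had -2.01. The FT5A value has SE 1.1, with 0, 0.122 and 0.0796 CPM in OE root. In leaf, FT5A had 0.662, 1.34 and 1.13 CPM in OE and 51, 60.5 and 47.6 CPM in WT. The NSP1 value has SE 0.696, with 6 counts in WT leaf. The size of both values therefore rests on levels near the floor, in root for FT5A and in leaf for NSP1.

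Phenylpropanoid entry genes had -2.96 (PAL3.1), -1.19 (PAL1.3), -0.87 (PAL2.3), -0.71 (PAL2.2), -0.54 (PAL2.1) and -0.36 (C4H). Flavonoid genes had -3.94 (ANS2), -1.48 (CHS7), -1.14 (CHS8), -0.56 (IFS1), -0.52 (MYB176), -0.36 (CHI1A) and 0.76 (IFS2). The ANS2 value has SE 1.29 and lies near the floor, with 6 counts in WT root and 0, 0.0408 and 0 CPM in OE root.

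Lipoxygenases had 4.41 (LOX10), 1.42 (LOX4) and 0.8 (LOX7), and oil genes had -0.68 (FATB1a) and 0.49 (KASII-A). Nitrogen genes had -2.45 (INR2) and 0.54 (GS-2). Ion transport and stress genes had -1.42 (WRKY27) and 0.44 (NHX1), and the transport and sugar genes had 6.22 (PHT1-4) and 0.87 (SS). The PHT1-4 value has SE 0.69, with 0, 0.0609 and 0 CPM in OE leaf. In 4 genes both genotypes were called in opposite directions, namely LOX10, PRR3B, ELF3A and PAL2.2.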

How the results depend on the processing

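The total of called genes stayed within 1.5 times under every alternative tried, between 25591 and 31686, and was 27862 with DESeq2 size factors and 27816 with the DESeq2 Wald test. The scaling decided the split. With library totals and no composition factor, 23894 genes were called higher in root and 7792 higher in leaf, and 15651 were higher in root by the 2-fold test. Under that scaling 2036 called genes were called with the other sign, and 8 named genes that were called by at least 1 of the scalings changed sign, to 0.71 (GIa), 0.5 (PHYA1), 0.89 (PHYB), 0.4 (PAL2.1), 0.66 (PAL2.3), 0.57 (FATB1a), 0.44 (FATB1B) and 0.54 (NHX1). No named gene called in either fit changed sign under any other alternative. Leaving out 1 WT library at a time gave 27234 to 27683 called genes. ELF3A and C4H1 were also lost with DESeq2 size factors, the DESeq2 Wald test and the 6 WT libraries alone, and PRR3B with the 6 WT libraries alone, whereas GIa was called with DESeq2 size factors (adjusted p = 0.0427) and its Wald test (adjusted p = 0.0499).

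Replicates that share a number across organs did not deviate together, with correlations of -0.008 to 0.008 over 32414 genes. With the replicate block, fitted to the 6 WT libraries, 25591 genes were called, against 26254 without the block in the same libraries. The block left ELF3A (adjusted p = 0.143) and C4H1 (adjusted p = 0.188) uncalled. The organ comparison in OE called 27834 and 30350 genes with DESeq2 size factors and library totals, and the difference between genotypes 8323 and 11887. A count of 0 hides up to 3 counts per library, and fitted values of genes at that level move with single libraries.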
